A study of Mus musculus with 6 samples.

Results

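The genes described here encode the translation initiation factors of the mouse, with the subunits, close relatives and regulators that carry their names. They were chosen by gene symbol from the deposited table of normalized read counts: every symbol that begins with Eif and a digit from 1 to 6, leaving out the 7 pseudogene symbols that contain .ps. That gave 55 genes among the 20596 rows with a symbol. The symbol alone decided which genes belong, although the family was picked for description with results of this comparison known, and the lowest total of any row in the table was 10 reads over the 6 libraries. Of the 55 genes, 53 had 10 or more normalized counts in 3 or more libraries and were tested. Eif4a3l1 and Eif4ebp3 did not.

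Initiation is the step in which a ribosome finds the start codon of an mRNA. The factor eIF2, carrying GTP and the initiator tRNA, joins the small ribosomal subunit together with eIF1, eIF1A, eIF3 and eIF5, while eIF4F, made of the cap-binding protein eIF4E, the scaffold eIF4G and the helicase eIF4A, prepares the mRNA. After start codon recognition eIF2 leaves as GDP-bound eIF2 and is recharged by eIF2B, and eIF5B helps the large subunit to join. The pathway is controlled mainly by kinases that phosphorylate the alpha subunit of eIF2 and by 4E-BP proteins that sequester eIF4E. Acinar cells of the pancreas secrete digestive enzymes and depend on a high rate of protein synthesis.

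The cells were 266.6, a mouse cell line labelled as an acinar tumour, grown in high-glucose DMEM with 10% fetal bovine serum and antibiotics. In 3 libraries (CAF_CM replicates 1 to 3) the cells had been kept in medium conditioned by cancer-associated fibroblasts, for up to 40 days, and 3 libraries of the same line were controls. The comparison asks which transcripts differ between acinar tumour cells in fibroblast-conditioned medium and controls. A separate time for the controls is not given in the labels, so the medium and time in culture cannot be told apart, and the replicates are samples of a single line whose separate cultures the labels do not describe. The p-values therefore measure the spread between these samples, which may be technical.

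Between 18622370 and 21002226 reads lay behind a library. Variation between libraries beyond sampling noise (edgeR's common coefficient of variation) came to 2.21% in controls and 8.22% with CAF_CM. No pair of libraries agreed within sampling noise. Of 18 acinar markers 17 had a row, led by the chymotrypsinogen gene Ctrb1, and their summed normalized counts ran from 70726.5 to 73219 in control and from 39638 to 46425 in CAF_CM libraries, with 8 of 15 tested lower and 1 higher. Summed ductal markers ran from 1152 to 1195 in control and from 1592 to 2028 in CAF_CM libraries. Of 12 fibroblast markers 8 had a row, summing to between 3515 and 3710 and to between 3165 and 3649, almost all of it Pdgfrb, and of the 7 tested Col1a2 was called higher (0.48) and Dcn lower (-0.93), with means for the collagen gene Col1a1 of 9.09 and 12.5. The leukocyte marker Ptprc had means of 2.67 and 1.96. The part of these shifts in the results on initiation factors was not tested, and in bulk RNA fewer cells of a type and less RNA per cell cannot be told apart.

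Initiation factor genes took a larger share of the reads in CAF_CM libraries. The share was 1.40%, 1.39% and 1.40% in the controls and 1.59%, 1.48% and 1.55% in the treated libraries, so the groups did not overlap. Their summed normalized counts were 270574 ± 1774 in control and 307661 ± 12152 in CAF_CM libraries (mean ± SD, n = 3 for each mean here), a ratio of 1.14. A gene is called below where limma on log2(value + 1), adjusted over all 16169 genes tested by the Benjamini-Hochberg method, gave an adjusted p under 0.05. Log2 fold changes are CAF_CM minus control on that scale, with their standard errors (SE).

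Of the 53 genes tested, 20 were called higher (37.7%), 1 was called lower (1.89%) and 32 were not called. Over all genes tested, 34.4% were called in either direction, 18.3% higher and 16.1% lower. Among the 43 initiation factor genes with a mean of at least 1000 normalized counts, 19 were called higher (44.2%) and 1 lower (2.33%), and among all 4974 genes of that level 34.0% were called higher and 13.8% lower. The median log2 fold change was 0.12 for the 53 genes, against 0.0046 for all genes tested. At a mean of at least 1000 it was 0.11 for the 43 initiation factor genes, against 0.0793 for all genes of that level. The groups did not overlap, with CAF_CM above control, in 22 of the 53 genes (41.5%), and with CAF_CM below in 1 (1.89%), against 24.8% and 22.9% of all genes tested. Without control replicate 1, 2 or 3, the genes called higher numbered 10, 10 and 11, against 1868, 1967 and 2087 of all genes, and without CAF_CM replicate 2 they numbered 26.

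**Figure D1:**
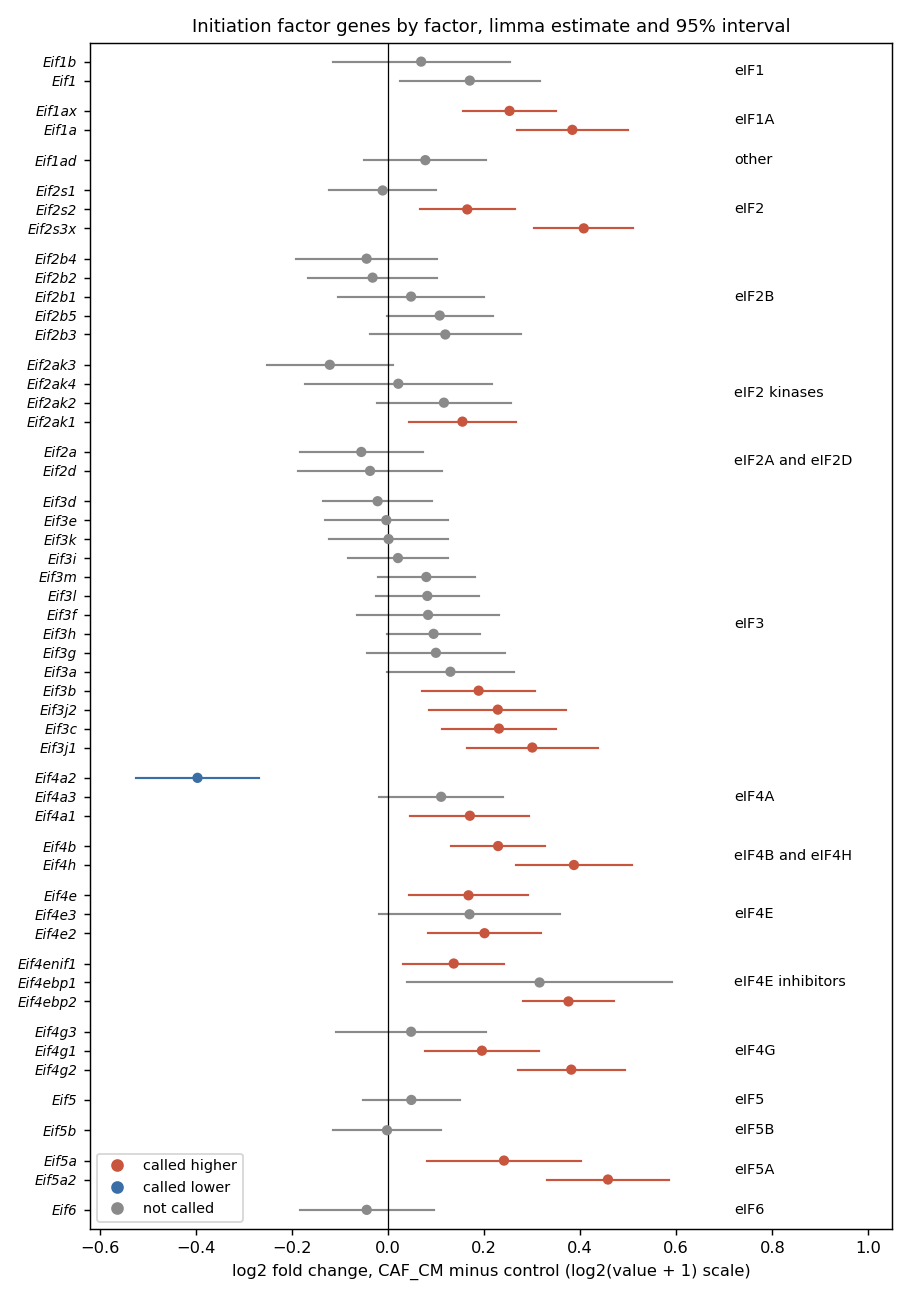
Log2 fold change (CAF_CM minus control, log2(value + 1) scale, horizontal axis) of 52 tested initiation factor genes, grouped by factor, with limma's 95% interval as a line. Points called higher are red, the single gene called lower (Eif4a2, -0.40) is blue and genes not called are grey; Eif4a3l2, whose interval runs from -0.22 to 1.53, is left out.

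The helicases of the eIF4A family moved in opposite directions. Eif4a1 and Eif4a2 encode near-identical RNA helicases that unwind structure in the leader of the mRNA, and Eif4a3 encodes a relative that works in the exon junction complex. Eif4a2 was 1.32-fold lower in CAF_CM libraries, with 6222, 5984 and 6103 normalized counts in the controls (replicates 1 to 3, in this order throughout) and 4745, 4240 and 4956 in the CAF_CM libraries. Every CAF_CM library was below every control library (log2 fold change -0.40, SE 0.059, adjusted p = 0.000504), and the gene was the only one of the family called lower. Eif4a1 had 28629, 28695 and 29159 normalized counts in control and 34517, 30377 and 32574 in CAF_CM libraries. All 3 CAF_CM libraries were above control (0.17, SE 0.056, adjusted p = 0.0363), but the call was lost with library totals as scaling (adjusted p = 0.0914), without CAF_CM replicate 3 (0.0755) and without control replicate 1, 2 or 3 (0.117, 0.137 and 0.0998).

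Eif4a3 stood at 3025, 2956 and 2859 normalized counts in control and at 3447, 2963 and 3150 in CAF_CM libraries. Its groups overlapped (0.11, adjusted p = 0.169), and it passed the test without CAF_CM replicate 2 (0.16, adjusted p = 0.0324) and corrected for the length and GC content of transcripts (0.20, 0.0047). Its value was 0.0528 without CAF_CM replicate 1 and 0.0652 with library totals. Per kilobase of the longest annotated coding transcript, Eif4a1 had 16250 normalized counts in control libraries and was the highest of all initiation factor genes, against 2254 for Eif4a2 and 1953 for Eif4a3. In CAF_CM libraries the levels per kilobase were 18314, 1716 and 2112, so that Eif4a2 passed from above Eif4a3 to below it. The ratio of Eif4a1 to Eif4a2 was 4.60, 4.79 and 4.78 in control and 7.27, 7.17 and 6.57 in CAF_CM libraries. An exact two-sided permutation test over 3 against 3 libraries gave p = 0.1, the smallest it allows, and 0.15 after adjustment over the 12 ratios compared here. The ratio of Eif4a1 to Eif4a3 ran from 9.46 to 10.2 in control and from 10.0 to 10.3 in CAF_CM libraries, with overlap (exact p = 0.2).

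Copies of these genes limit how reads can be assigned. Of the stretches of 50 bases in the longest Eif4a1 transcript, 65.3% also occur in another annotated gene, 64.9% in the pseudogene Eif4a.ps4, against 11.5% for Eif4a2. The row of Eif4a.ps4 held 8368, 8458 and 8562 normalized counts in control and 10465, 9362 and 9861 in CAF_CM libraries, and was itself called higher (0.22, adjusted p = 0.00587). Gm2999, which shares sequence with Eif4a2, was called lower (-0.41, adjusted p = 0.00915). How the authors' counting treated shared reads is not given in the sources used here. The rows Eif4a3l1 and Eif4a3l2 stayed between 1.02 and 15.2 normalized counts in every library. Eif4a3l2, the tested gene of fewest counts, had 3.85, 9.18 and 10.5 in control and 8.24, 13.7 and 15.2 in CAF_CM libraries and was not called (0.65, SE 0.40, adjusted p = 0.231; 0.27 without control replicate 1).

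**Figure D2:**
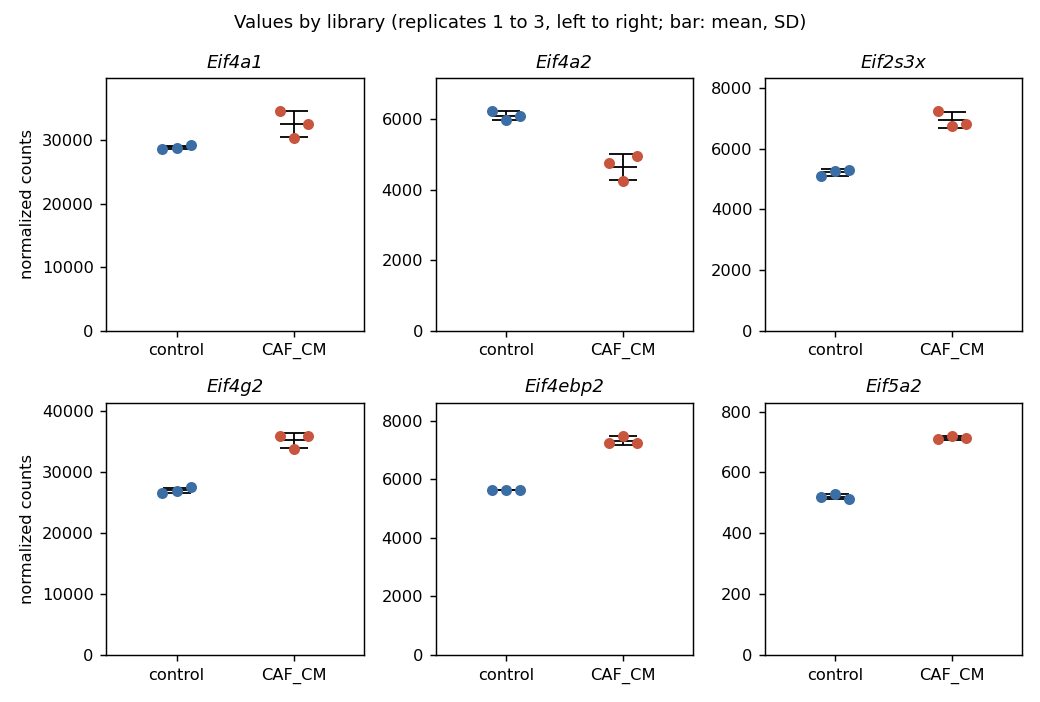
Normalized counts (vertical axes, from 0) of 6 initiation factor genes in each library, with control in blue and CAF_CM in red, replicates 1 to 3 from left to right, and the mean and SD as black bars. Eif4a2 lies below control in all 3 CAF_CM libraries and the other genes lie above it in all 3.

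The bases just before the annotated starts of the helicase pair are shown because these genes moved apart. Both stretches are from RefSeq on GRCm38.p6, run 5′ to 3′ on the gene's strand and end at the base before the start: chr11:69672424-69672523, minus strand, for Eif4a1, and chr16:23107368-23107467, plus strand, for Eif4a2. Capitals mark GGGCGG and CCAAT on either strand.
Eif4a1: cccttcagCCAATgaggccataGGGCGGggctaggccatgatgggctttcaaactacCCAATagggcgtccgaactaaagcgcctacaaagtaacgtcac
Eif4a2: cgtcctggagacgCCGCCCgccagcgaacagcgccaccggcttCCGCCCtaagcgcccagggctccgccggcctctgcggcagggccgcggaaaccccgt
Both windows hold GGGCGG or its complement, CCGCCC, and CCAAT is in that of Eif4a1. These matches describe the letters in the window and were not tested as sites.

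Among the cofactors of the helicase, both genes rose. Eif4h had 11051, 11100 and 11282 normalized counts in control and 15769, 14162 and 13861 in CAF_CM libraries, 1.31-fold higher (log2 fold change 0.39, SE 0.055, adjusted p = 0.000411). Eif4b had 10866, 11169 and 11293 in control and 13055, 12886 and 13125 in CAF_CM libraries (0.23, SE 0.044, adjusted p = 0.00241). The groups were separate for both, and both calls held under all 17 alternative settings. The ratio of Eif4h to Eif4b was 1.02, 0.994 and 0.999 in control and 1.21, 1.10 and 1.06 in CAF_CM libraries (exact p = 0.1, adjusted 0.15).

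Of the 3 eIF4G scaffold genes, 2 rose. Eif4g2 encodes DAP5, a relative of eIF4G that lacks the eIF4E-binding region and supports cap-independent initiation. It rose 1.30-fold, from 26637, 26926 and 27479 normalized counts in control to 35907, 33726 and 35986 in CAF_CM libraries (0.38, SE 0.051, adjusted p = 0.000273), which left a wide gap between the groups. Eif4g1, the main scaffold, had 19387, 19706 and 19999 in control and 21279, 22513 and 23958 in CAF_CM libraries (0.20, SE 0.054, adjusted p = 0.0163). The third scaffold, Eif4g3, had 5364, 5630 and 5571 in control and 5004, 6048 and 6146 in CAF_CM libraries, with CAF_CM replicate 1 below all controls and the others above them (0.05, adjusted p = 0.642). Leaving that library out, it passed the test (0.14, adjusted p = 0.0090), and its direction turned when limma was corrected for the length and GC content of transcripts (-0.10, adjusted p = 0.0702) and without CAF_CM replicate 3 (-0.0050). The call on Eif4g1 was lost without CAF_CM replicate 3 (adjusted p = 0.0542), without control replicate 1, 2 or 3 (0.0745, 0.0750 and 0.0542) and with the length and GC correction (0.10, 0.0842). That correction brought Eif4g2 from 0.38 to 0.19 (adjusted p = 0.0211).

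Per kilobase, Eif4g1 and Eif4g2 were at a like level in control libraries, 3494 and 3379 normalized counts, and Eif4g3 was at 679. In CAF_CM libraries Eif4g2 stood above Eif4g1, 4404 against 4006. The ratio of Eif4g2 to Eif4g1 was 1.37, 1.37 and 1.37 in control and 1.69, 1.50 and 1.50 in CAF_CM libraries, and that of Eif4g3 to Eif4g1 was 0.277, 0.286 and 0.279 against 0.235, 0.269 and 0.257. Neither ratio overlapped between the groups (exact p = 0.1 for each, adjusted 0.15).

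Genes of the cap-binding proteins and of their inhibitors both included rises. Eif4ebp2 encodes 4E-BP2, which blocks eIF4E until mTOR phosphorylates it. It had 5615, 5632 and 5645 normalized counts in control and 7218, 7483 and 7222 in CAF_CM libraries, a 1.30-fold rise (0.38, SE 0.043, adjusted p = 0.000128). The controls agreed closely and every CAF_CM library was well above them. Its relative Eif4ebp1 had far fewer counts, 282, 276 and 293 in control and 426, 282 and 367 in CAF_CM libraries. CAF_CM replicate 2 lay within the control range, and the gene was not called (0.32, SE 0.13, adjusted p = 0.0733), whereas it passed the test without that library (0.48, adjusted p = 0.0014), with separate group weights (0.0361) and corrected for length and GC (0.0196). Without CAF_CM replicate 1 its value was 0.18 (adjusted p = 0.197).

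Eif4ebp3 was near the floor, with 7.71, 7.14 and 4.19 normalized counts in control and 3.09, 0.979 and 3.80 in CAF_CM libraries, and was not tested. Eif4enif1, which encodes the eIF4E transporter 4E-T, had 2121, 2255 and 2128 in control and 2372, 2346 and 2431 in CAF_CM libraries (0.14, SE 0.048, adjusted p = 0.0463). Its call was the least stable of the 21, held under 5 of 17 settings, with an adjusted p of up to 0.172 (without control replicate 1) and losses also without control replicate 2 (0.0709) or 3 (0.168) and without CAF_CM replicate 3 (0.119).

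Eif4e itself, the cap-binding subunit of eIF4F, had 4289, 4343 and 4649 normalized counts in control and 5342, 4723 and 4865 in CAF_CM libraries (0.17, SE 0.057, adjusted p = 0.0401). The gap between the groups was small, 4649 against 4723, and the call was lost without control replicate 1, 2 or 3 (adjusted p = 0.158, 0.149 and 0.0511) or CAF_CM replicate 3 (0.0652), in DESeq2 (0.0563), with library totals (0.106) and corrected for length and GC (0.0852 log2 units, adjusted p = 0.278). Eif4e2, which encodes the 4EHP protein that competes for the cap, had 2326, 2280 and 2465 in control and 2862, 2647 and 2622 in CAF_CM libraries (0.20, SE 0.054, adjusted p = 0.0137), and lost its call without control replicate 1 (0.0650) or 2 (0.0804). Eif4e3 had 284, 307 and 310 in control and 344, 364 and 308 in CAF_CM libraries and was not called (0.17, adjusted p = 0.150). Per kilobase, control levels were 887 for Eif4e, 679 for Eif4e2, 119 for Eif4e3, 974 for Eif4ebp2 and 142 for Eif4ebp1. The ratio of Eif4ebp2 to Eif4e was 1.31, 1.30 and 1.21 in control and 1.35, 1.58 and 1.48 in CAF_CM libraries, without overlap (exact p = 0.1, adjusted 0.15). That of Eif4ebp1 to Eif4ebp2 overlapped (exact p = 0.9).

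In eIF2, the carrier of the initiator tRNA, the subunit genes differed from one another. Eif2s3x, the X-linked gene of the gamma subunit that binds GTP and tRNA, rose 1.33-fold, from 5095, 5278 and 5315 normalized counts in control to 7236, 6755 and 6826 in CAF_CM libraries (0.41, SE 0.047, adjusted p = 0.000131). Eif2s2, the beta subunit, had 3390, 3372 and 3399 in control and 3923, 3712 and 3761 in CAF_CM libraries (0.17, SE 0.045, adjusted p = 0.0152). Eif2s1, the alpha subunit that the stress kinases phosphorylate, had 2380, 2422 and 2450 in control and 2355, 2309 and 2539 in CAF_CM libraries, with the groups overlapping (-0.011, 95% interval -0.12 to 0.10, adjusted p = 0.892). The ratio of Eif2s3x to Eif2s1 was 2.14, 2.18 and 2.17 in control and 3.07, 2.93 and 2.69 in CAF_CM libraries, and that of Eif2s2 to Eif2s1 was 1.42, 1.39 and 1.39 against 1.67, 1.61 and 1.48 (exact p = 0.1 for each, adjusted 0.15). Eif2s2 lost its call without control replicate 1, 2 or 3 (adjusted p = 0.0625, 0.0758 and 0.0623) and with library totals (0.0549).

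Of the Eif2s3x transcript 36.2% in stretches of 50 bases is shared with Gm2223, whose row went from 504, 546 and 534 to 726, 822 and 808 normalized counts and was called higher (adjusted p = 0.000162). Eif2s2 shares 27.8% with Gm9892, also called higher (adjusted p = 0.0249). Eif2a and Eif2d, whose products can bring tRNA to the ribosome without eIF2, did not pass the test. Eif2a had 1417, 1334 and 1477 normalized counts in control and 1411, 1290 and 1368 in CAF_CM libraries (-0.06, adjusted p = 0.499), and Eif2d had a log2 fold change of -0.04 (adjusted p = 0.713).

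None of the 5 genes of eIF2B, the exchange factor that recharges eIF2 with GTP, was called by limma, nor by edgeR or DESeq2 on recovered reads, with log2 fold changes from -0.04 for Eif2b4 to 0.12 for Eif2b3. None had an unadjusted p under 0.05, the lowest being 0.0539. The gene with the most counts, Eif2b5, which encodes the catalytic epsilon subunit, had 2462, 2452 and 2536 normalized counts in control and 2753, 2536 and 2744 in CAF_CM libraries (0.11, adjusted p = 0.119). Its control and CAF_CM libraries met at 2536. Without CAF_CM replicate 2, Eif2b3 (0.18, adjusted p = 0.0468) and Eif2b5 (0.15, 0.0267) were called higher, and without CAF_CM replicate 1 Eif2b4 was called lower (-0.12, 0.0498) and Eif2b3 stood at 0.0617. Corrected for length and GC, Eif2b5 was called higher (0.18, adjusted p = 0.0076) and Eif2b3 was at 0.0672. With library totals these 2 genes were at 0.0623 and 0.0739.

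Among the 4 kinases of the eIF2 alpha subunit, 1 was called. Eif2ak1, which encodes the heme-regulated kinase HRI, had 1596, 1643 and 1613 normalized counts in control and 1882, 1725 and 1799 in CAF_CM libraries (0.16, SE 0.051, adjusted p = 0.0357). Eif2ak2, the double-stranded RNA sensor PKR, had 972, 967 and 926 against 951, 1073 and 1087 (0.12, adjusted p = 0.181). Eif2ak3, the endoplasmic reticulum stress kinase PERK, had 971, 1054 and 1034 against 933, 985 and 895 (-0.12, adjusted p = 0.142), and Eif2ak4, the amino acid sensor GCN2, had 323, 373 and 339 against 317, 360 and 374 (0.02, adjusted p = 0.877). Groups overlapped for these 3 kinases. Eif2ak1 lost its call without control replicate 1, 2 or 3 (adjusted p = 0.128, 0.0934 and 0.114) or CAF_CM replicate 3 (0.0765), in DESeq2 (0.0932), with library totals (0.114) and corrected for length and GC (0.0896 log2 units, adjusted p = 0.184). Leaving out CAF_CM replicate 1, Eif2ak2 passed as higher (0.18, adjusted p = 0.0151), whereas it was at 0.0225 corrected for length and GC (adjusted p = 0.789) and at 0.0711 with library totals. Eif2ak3 was called lower with library totals (-0.17, 0.0490) and corrected for length and GC (-0.18, 0.0182).

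The genes of eIF1A, which with eIF1 keeps the ribosome open for scanning, both rose. Eif1a had 1739, 1663 and 1607 normalized counts in control and 2267, 2171 and 2097 in CAF_CM libraries, 1.30-fold higher (0.38, SE 0.053, adjusted p = 0.00034). Eif1ax, its X-linked relative, had 3235, 3121 and 3234 in control and 3771, 3827 and 3831 in CAF_CM libraries (0.25, SE 0.044, adjusted p = 0.00133). Both calls held under all 17 settings, and the summed counts of the pair were 1.23-fold higher. The ratio of Eif1a to Eif1ax went from 0.537, 0.533 and 0.497 to 0.601, 0.567 and 0.547 (exact p = 0.1, adjusted 0.15). Eif1, which monitors the start codon, had 7349, 7166 and 7540 in control and 9114, 7447 and 8339 in CAF_CM libraries, where CAF_CM replicate 2 lay within the control range (0.17, SE 0.067, adjusted p = 0.0682). It passed the test without that library (0.25, adjusted p = 0.00315), with separate group weights (0.0325) and corrected for length and GC (0.00325), and stood at 0.10 without CAF_CM replicate 1 (adjusted p = 0.107). Its relative Eif1b (0.07, adjusted p = 0.564) and Eif1ad (0.08, adjusted p = 0.328), which encodes a protein of ribosome assembly with an eIF1A domain, were not called.

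Of the 14 eIF3 genes, which encode the large complex that holds the small subunit and mRNA together, 4 rose, none fell and 10 were not called. Each of the 14 had a mean of at least 1000 normalized counts. Of all genes tested at that level, 34.0% were called higher and 13.8% lower. Eif3c, a core subunit, had 9451, 9464 and 9609 normalized counts in control and 11764, 10365 and 11397 in CAF_CM libraries (0.23, SE 0.054, adjusted p = 0.0068). Eif3b, another core subunit, had 10556.5, 10826 and 10843 against 13142, 11618 and 12019 (0.19, SE 0.054, adjusted p = 0.0185). Groups were separate for both. Eif3j1 had 1257, 1236 and 1352 against 1675, 1465 and 1600 (0.30, SE 0.062, adjusted p = 0.00366), and Eif3j2 had 993, 988 and 965 against 1249, 1058 and 1153 (0.23, SE 0.065, adjusted p = 0.0185). These are near-identical genes of the loosely bound j subunit, 91.9% of the Eif3j2 transcript being shared in stretches of 50 bases, almost all with Eif3j1, so their separate values are uncertain and both rises may count the same reads. Corrected for length and GC, Eif3j1 was at 0.17 (adjusted p = 0.0492). Without control replicate 1, 2 or 3, Eif3b (adjusted p = 0.0837, 0.0709 and 0.0627) and Eif3j2 (0.0596, 0.0632 and 0.0757) lost their calls, and Eif3j2 also without CAF_CM replicate 3 (0.053).

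The eIF3 gene with the most counts, Eif3a, had 10781, 11903 and 12010 normalized counts in control and 11901, 12588 and 13485 in CAF_CM libraries, with control replicate 3 above CAF_CM replicate 1 (0.13, adjusted p = 0.119). Leaving out CAF_CM replicate 1, it passed the test (0.17, adjusted p = 0.012). Its value was 0.0804 without control replicate 1, 0.0835 without CAF_CM replicate 3, 0.0846 with library totals and -0.0023 corrected for length and GC. Eif3h and Eif3m were above control in all 3 CAF_CM libraries, by 0.10 and 0.08, and were not called (adjusted p = 0.12 and 0.204). The other 7, Eif3d, Eif3e, Eif3f, Eif3g, Eif3i, Eif3k and Eif3l, overlapped and lay between -0.02 and 0.10. Eif3g passed the test without CAF_CM replicate 2 (0.16, adjusted p = 0.0458) and was at 0.0277 without CAF_CM replicate 1. The length and GC correction called Eif3g (0.18, adjusted p = 0.0167), Eif3h (0.16, 0.00381) and Eif3l (0.17, 0.0049) higher. With library totals these 3 were at 0.0544, 0.0495 and 0.0365. Per kilobase, eIF3 genes in control libraries ranged from 237 for Eif3j1 and 413 for Eif3j2 to 6667 for Eif3h. Summed over the complex, counts went from 72212 ± 259 to 78466 ± 3251, a ratio of 1.09.

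The late factors divided between eIF5A and the others. The eIF5A proteins carry hypusine, a modified lysine, and promote peptide bond formation and elongation as well as initiation. Eif5a2 had 520, 527 and 512 normalized counts in control and 708, 721 and 714 in CAF_CM libraries, 1.37-fold higher, with SDs of 7.81 and 6.22 around the group means (0.46, SE 0.058, adjusted p = 0.000215). This was the highest log2 fold change among the genes called. Eif5a, the abundant relative at 14559 normalized counts per kilobase in control libraries against 103 for Eif5a2, had 21060, 20879 and 20825 in control and 28084, 22405 and 24050 in CAF_CM libraries (0.24, SE 0.073, adjusted p = 0.0243). CAF_CM replicate 1 was far above the other libraries for it, and the call was lost without control replicate 1, 2 or 3 (adjusted p = 0.0745, 0.0859 and 0.0815) and with library totals (0.0515). Without CAF_CM replicate 1 its value was 0.15 (adjusted p = 0.00773). The ratio of Eif5a to Eif5a2 ran from 39.6 to 40.7 in control and was 39.6, 31.1 and 33.7 in CAF_CM libraries (exact p = 0.2).

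Eif5, the GTPase activator of eIF2, had 4399, 4331 and 4620 normalized counts in control and 4607, 4670 and 4527 in CAF_CM libraries (0.05, 95% interval -0.05 to 0.15, adjusted p = 0.448). Eif5b, which promotes subunit joining, had 3395, 3178 and 3079 against 3319, 3137 and 3180 (-0.0018, interval -0.11 to 0.11, adjusted p = 0.982). Eif6, which keeps free large subunits from joining early, had 3295, 3100 and 3062 against 3375, 2894 and 2921 (-0.04, interval -0.18 to 0.10, adjusted p = 0.632). The groups overlapped for all 3. Corrected for length and GC, Eif5b was called lower (-0.19, adjusted p = 0.0412), and without CAF_CM replicate 1 Eif6 was (-0.12, adjusted p = 0.0487).

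Differences among the CAF_CM libraries ran across the factors. Of the 53 genes tested, CAF_CM replicate 1 was the highest of the 3 CAF_CM libraries in 33 and CAF_CM replicate 2 the lowest in 35. The median log2 difference from the control mean was 0.19 in replicate 1, 0.07 in replicate 2 and 0.14 in replicate 3. The median coefficient of variation within a group was 2.53% for control and 6.37% for CAF_CM libraries, and in CAF_CM libraries the lowest of the 53 was 0.87%, that of Eif5a2. For the 5 eIF2B genes these medians were 0.15, -0.06 and 0.03, and for the pair of eIF1 genes 0.28, -0.04 and 0.11, so replicate 2 was the lowest. Replicate 1 was the lowest for the 4 eIF2 kinases (-0.06, 0.08 and 0.14) and for the 3 eIF4G genes (0.11, 0.19 and 0.28). In the eIF1A pair they stood close, at 0.34, 0.32 and 0.30.

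**Figure D3:**
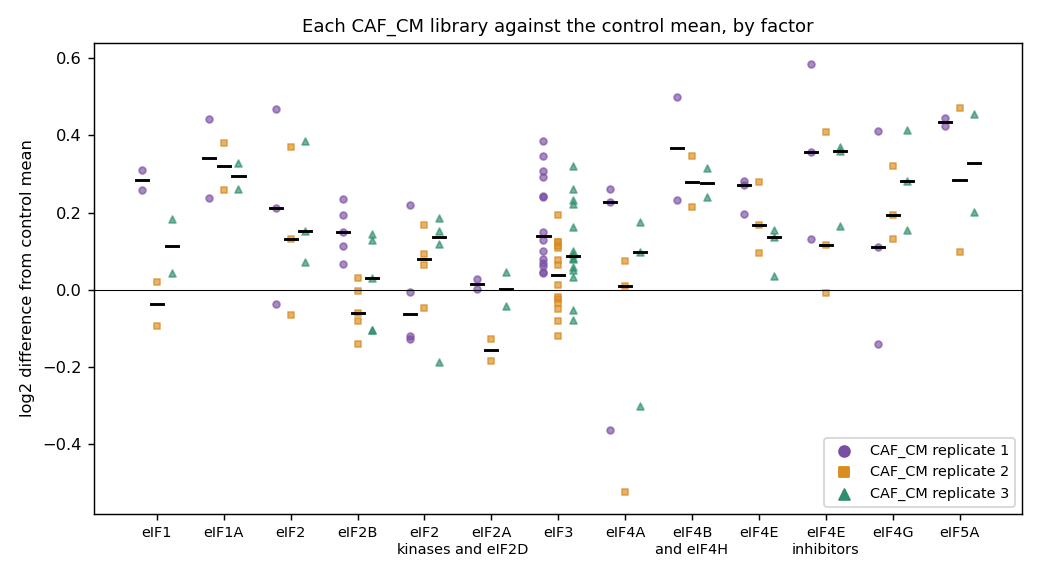
Log2 difference of each CAF_CM library from the control mean (vertical axis) for the genes of each factor with at least 2 tested members, with replicate 1 as purple circles, replicate 2 as orange squares and replicate 3 as green triangles, and the median of each library as a black bar. Eif4a3l2 is left out of the points and of the medians. CAF_CM replicate 2 is below 0 in the median of eIF1, eIF2B, eIF2A and eIF2D, and replicate 1 in that of the eIF2 kinases. The medians of all 3 libraries are above 0 for eIF1A, eIF2, eIF3, eIF4A, eIF4B and eIF4H, eIF4E, its inhibitors, eIF4G and eIF5A.

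Of the 21 calls, 11 held with the same direction under all 17 alternative settings: Eif1a, Eif1ax, Eif2s3x, Eif3c, Eif3j1, Eif4a2, Eif4b, Eif4ebp2, Eif4g2, Eif4h and Eif5a2. The other 10 were lost under 2 to 12 settings, and none of the 21 changed sign. Across genes, which are not independent replicates, Spearman's rho between log2 fold change and transcript length was 0.31 over 52 initiation factor genes and 0.22 over 15362 genes tested, and rho with GC content was -0.23 and -0.11. These describe all genes in the same 6 libraries, and their part in the differences was not tested beyond the length and GC correction.

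**Figure D4:**
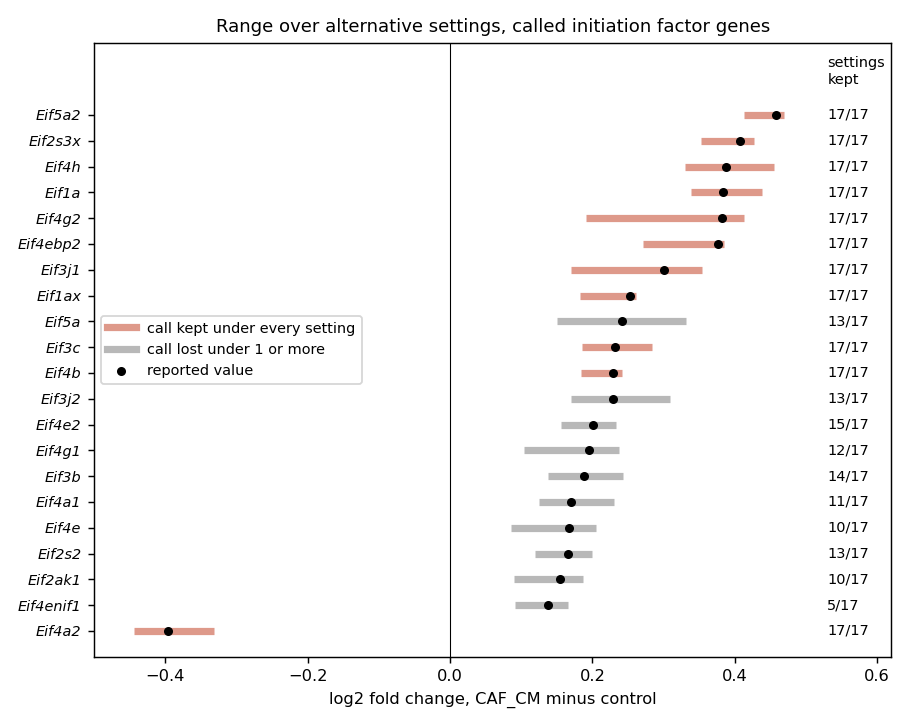
Range of the log2 fold change (CAF_CM minus control, horizontal axis) over 17 alternative settings for the 21 initiation factor genes called, with the reported value as a black dot and the number of settings that kept the call at the right. Red bars mark the 11 genes whose call held under every setting, and the bars of all 21 stay on 1 side of 0.

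Promoter letters were searched in the 250 bases before the RefSeq start of 42 of the 53 genes tested, those with an entry, on GRCm38.p6 and both strands, with 7 motifs. CACGTG, the E-box bound by MYC, MAX, USF and TFE factors, was in 9 of the 42 (21.4%), against 9.91% of 10508 genes tested and 6.86% of all 27025 genes in that table. Of these 9 genes 6 were called higher, Eif4a1, Eif4e, Eif4g1, Eif4h, Eif5a and Eif5a2, and Eif1b, Eif3f and Eif3k were not called. The calls on Eif4h and Eif5a2 held under all 17 alternative settings, and those on Eif4a1, Eif4e, Eif4g1 and Eif5a did not. Of the 33 genes without CACGTG 11 were called higher and 1 lower. The shares of genes with CACGTG were not matched for the level of counts. The stretches around CACGTG, shown in capitals, are given for the 6 called genes only, although the 3 genes not called hold the same letters. Each stretch runs 5′ to 3′ on the gene's strand and lies before the start. Positions are chr11:69672577-69672642 (minus strand) for Eif4a1, chr3:138527174-138527239 (plus) for Eif4e, chr16:20672643-20672708 (plus) for Eif4g1, chr5:134639470-134639535 (minus) for Eif4h, chr11:69921425-69921490 (minus) for Eif5a and chr3:28781130-28781195 (plus) for Eif5a2.
Eif4a1: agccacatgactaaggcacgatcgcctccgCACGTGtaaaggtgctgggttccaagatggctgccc
Eif4e: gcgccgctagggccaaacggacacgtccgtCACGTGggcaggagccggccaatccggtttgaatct
Eif4g1: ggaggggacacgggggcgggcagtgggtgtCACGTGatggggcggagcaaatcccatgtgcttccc
Eif4h: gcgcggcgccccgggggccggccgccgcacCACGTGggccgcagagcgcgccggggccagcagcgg
Eif5a: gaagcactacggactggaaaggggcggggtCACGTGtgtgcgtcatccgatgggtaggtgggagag
Eif5a2: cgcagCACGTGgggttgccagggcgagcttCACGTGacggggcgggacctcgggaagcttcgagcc
The Eif5a2 stretch holds the letters at 2 places, and Eif4e and Eif5a have further matches that are not shown, for Eif5a before another annotated start. Among all genes tested, 23.4% of those with CACGTG and 19.8% of those without were called higher. CCGGAAG, the core of ETS factor sites, was in 12 of the 42 (28.6% against 15.3% of genes tested), GGGCGG in 31 (73.8% against 64.2%), CCAAT in 14 (33.3% against 41.1%) and TATAAA in 3 (7.14% against 7.68%). TGACGTCA and TGATGCAA were in none of these windows, against 3.01% and 0.647% of genes tested. Motifs may overlap one another, and a match was not tested as a site.

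Regulators and partners of the initiation factors moved in both directions. Of 50 tested, 20 were called higher (40.0%) and 2 lower, against 18.3% and 16.1% of all genes tested. Many of the 50 had a mean of at least 1000 normalized counts, and of all genes of that level 34.0% were higher and 13.8% lower. The median log2 fold change of the 50 was 0.13. Larp4, an mRNA-stabilizing partner of the poly(A)-binding protein, rose from 4835 ± 164 to 6747 ± 320 normalized counts (0.48, adjusted p = 8.27e-05). Bzw1 and Bzw2, whose products mimic eIF5 and compete for eIF2, rose by 0.35 and 0.39 log2 units (adjusted p = 0.000245 and 0.000432). Mknk1, a kinase that phosphorylates eIF4E, fell from 3716 ± 43.9 to 2890 ± 101 normalized counts (-0.36, adjusted p = 0.000227), whereas Mknk2, the other such kinase, rose from 4618 ± 22.3 to 5063 ± 128 (0.13, adjusted p = 0.0372). Mtor (0.05, adjusted p = 0.648) and the ribosomal protein gene Rps6 (0.0076, adjusted p = 0.922), named like Mknk2 after their values were seen, were not called. Other genes of the mTOR pathway in the list, also named after their values were seen, moved both ways. Deptor (0.65, adjusted p = 0.00176), Tsc1 (0.25, 0.0206) and Rps6kb1 (0.23, 0.0133) were called higher and Rps6kb2 lower (-0.34, 0.00217). Rptor, Mlst8, Akt1s1, Tsc2 and Rheb were not called. Atf4 (0.18, adjusted p = 0.0583) and Ddit3 (-0.07, adjusted p = 0.644), genes of the response to eIF2 phosphorylation, were not called either. These counts are of RNA and do not measure the proteins or the phosphorylation.

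Of 14 elongation and termination factor genes, 7 were called higher and 1 lower, with a median of 0.15. The shares were 18.3% and 16.1% of all genes tested, and 34.0% and 13.8% of those with a mean of at least 1000 normalized counts. The release factor genes Etf1 (0.40, adjusted p = 0.000152) and Gspt1 (0.39, adjusted p = 0.000153) rose, from 2544 ± 25.4 to 3350 ± 125 and from 5005 ± 136 to 6580 ± 213 normalized counts. Eef1a2 rose from 423 ± 5.03 to 602 ± 57.1 (0.50, adjusted p = 0.000617) and the ribosome rescue gene Hbs1l by 0.26 (adjusted p = 0.00262), while the fall was that of Gspt2, a retrogene relative of Gspt1 (-0.51, adjusted p = 0.0126). Of 9 mitochondrial initiation and elongation factor genes, 2 were called higher (22.2%, near the 18.3% of all genes tested), Tufm (0.18, adjusted p = 0.0164) and Gfm1 (0.19, adjusted p = 0.0209), and the median was -0.03.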

How the data were processed

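RNA of 6 samples was sequenced after TruSeq library preparation, per the labels' protocols. FastQC, DESeq2 and hg19, a human build, stand in the submitters' processing notes. Symbols in the table are mouse symbols. Its aligner, counter and mouse build are not given in the sources used here. The deposited values are a signal, read counts that the authors had divided by 1 factor per library. In every library 100% of the values were whole multiples, within 0.001 of a read, of the worth of 1 read, and reads were recovered by that division. Of 20764 rows, 168 carry no symbol (0.153% to 0.261% of reads) and were left out.

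Genes that reached 10 in 3 or more libraries (16169) were tested with limma 3.58.1 (lmFit, eBayes with a trend, two-sided, R 4.3.3) on log2(value + 1), a scale that understates changes of low genes, with Benjamini-Hochberg adjustment and a threshold of 0.05. The test was checked on simulated data. Ratios were compared by exact permutation. Alternatives were edgeR 4.0.16 and DESeq2 1.42.0 on the recovered reads, library totals or TMM as scaling, pseudocounts of 0.5 and 5, no filter, a minimum of 50, separate group weights, a correction for transcript length and GC content, a replicate block and leaving out each library in turn. Lengths and shared stretches came from the longest coding transcript in GENCODE M21.

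The genes and lists were chosen with earlier results of these data known, so counts of called genes are descriptions. Values of every library are given for genes called, the gene of each factor with the most counts, the lowest genes tested and relatives of named genes, and up to 4 called genes of lowest adjusted p are named from each of 3 lists (regulators and partners, elongation and termination, mitochondrial factors). Marker lists of islet and endothelial cells and leukocytes were also summed: islet markers, almost all Chga, gave 31040.5 to 31446.5 in control and 22200.6 to 24079 in CAF_CM libraries, endothelial markers 197 to 226 and 158 to 191, leukocyte markers 118 to 139 and 90.1 to 121.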

Additional observations from a re-analysis of the deposited data

How the results depend on the processing

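With 3 libraries per group, leaving out any 1 library leaves 2 in its group and fewer degrees of freedom. Without control replicates 1, 2 and 3, the genes called higher and lower fell to 1868 and 1659, 1967 and 1715, and 2087 and 1723. Initiation factors called higher then numbered 10, 10 and 11. Leaving out CAF_CM replicate 1 or 2 raised the genes called to 3509 and 2943 or 3100 and 2786, with 23 and 26 initiation factors higher. Without CAF_CM replicate 3 they were 2309 and 2090, with 14. The cause of these changes in number was not tested. Initiation factors called lower ran from 1 to 3 (3 without CAF_CM replicate 1). Under the other 11 settings the initiation factors called higher numbered 14 (library totals) to 23 (length and GC correction), and those called lower numbered 1, except 2 with library totals and 3 after the length and GC correction. Library totals also moved the split over all genes from 2953 higher and 2602 lower to 2231 and 3179. The median log2 fold change of the initiation factors stayed above 0 under all 17 settings, from 0.07 to 0.15. Whether the same replicate numbers pair the samples is not given in the labels and was not settled. Correlations of deviations were weak for the same number (0.0703, 0.0291 and 0.0305), although every sample correlated best with its own number. With the replicate block 20 initiation factors were called higher and 1 lower, and 3166 and 2755 of all genes. Calls on Eif4a1 (adjusted p = 0.0509) and Eif4enif1 (0.0545) were then not made, and Eif1 (0.0352) and Eif4ebp1 (0.0318) were called higher.

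None of the 21 called genes changed sign. Of the 32 not called, 16 did so under 1 or more settings, and the cause was not tested. After the length and GC correction the values were -0.0818 for Eif2ak4, 0.0636 for Eif2b2, 0.0554 for Eif2b4, -0.0023 for Eif3a, 0.0764 for Eif3d, 0.0784 for Eif3e, -0.10 for Eif4g3, -0.0082 for Eif5 and 0.0484 for Eif6. With library totals they were -0.0238 for Eif2ak4, -0.0246 for Eif3i and -0.0441 for Eif3k. Eif3k was also at -0.0044 in edgeR, -0.0062 in DESeq2 and -0.0051 with TMM scaling. With 1 library left out, values ran from -0.0249 to 0.15 for Eif1b, -0.0268 to 0.0918 for Eif2ak4, -0.0250 to 0.11 for Eif2b1, -0.0816 to 0.0039 for Eif2b2, -0.12 to 0.0037 for Eif2b4, -0.0793 to 0.0369 for Eif2d, -0.0518 to 0.0165 for Eif2s1, -0.0674 to 0.0086 for Eif3d, -0.0447 to 0.0557 for Eif3e, -0.0481 to 0.0409 for Eif3k, -0.0050 to 0.14 for Eif4g3 and -0.0329 to 0.0375 for Eif5b.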
